A study of Homo sapiens and Mus musculus with 16 samples.

Results

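The genes described here encode the subunits of the nuclear RNA polymerases and of Mediator, the complex that carries signals from activators to RNA polymerase II. They were selected by symbol, POLR1, POLR2 or POLR3 followed by letters, or MED followed by a number, and the ratio of P-body to cytoplasmic RNA by complex was the reading for which the group was proposed. The human count table held 57 such genes among 22286, of which 27 were polymerase subunits and 30 were Mediator subunits. The mouse table held the same 57 symbols among 15881 genes. All 57 members had reads in every comparison, between 55 and 57 passed the edgeR filter on low counts, and between 49 and 55 had a mean of at least 5 CPM (reads scaled to a common library total).

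P-body-seq compares RNA from P-bodies, cytoplasmic granules of untranslated mRNA and decay factors, with RNA from the cytoplasmic fraction they were sorted from. By the study's methods this fraction was a resuspended pellet of the lysate, taken before sorting, so it still held P-bodies. In every line the granules were marked with LSM14A, a P-body protein, fused to GFP, so the controls carried the fusion too. There were 16 libraries, 2 of P-bodies and 2 of cytoplasm in each of 4 cell types. HEK293T is a human embryonic kidney line and KH2 a mouse embryonic stem (ES) cell line, here grown in serum with LIF, while the liver bud progenitors and the neurons at day 20 were both differentiated from UCLA4 human ES cells. By the study's methods the fusion was driven by an EF1a promoter from a lentivirus in HEK293T and mouse ES cells, and was placed at the AAVS1 locus in the human ES cells. HEK293T and mouse ES libraries were labelled total RNA and the others polyA RNA, so that cell type and kind of library cannot be told apart where one of the former is set beside one of the latter. The study describes the libraries of a group as biological replicates. The labels do not say whether they came from separate cultures, and p-values measure only the spread between the 2 libraries.

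RNA polymerase I transcribes ribosomal RNA, polymerase II transcribes mRNA, and polymerase III transcribes tRNA, 5S ribosomal RNA and other short RNAs. In each enzyme a pair of large subunits, called A and B in the symbols used here, forms the catalytic centre. POLR1C and POLR1D serve in polymerases I and III, and POLR2E, POLR2F, POLR2H, POLR2K and POLR2L serve in all 3. Mediator is built of a head and a middle that contact polymerase II, a tail that contacts activators, the backbone subunit MED14, and a detachable kinase module in which MED12 or MED12L activates a cyclin-dependent kinase and MED13 or MED13L joins it to the core. P-bodies are known to hold mRNAs with a low content of G and C.

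The members differed in how many of their codons end in G or C. The stretches below are codons 101 to 140 (bases 301 to 420 of the human coding sequence, GENCODE on hg38), with G and C at the third codon position in capitals. MED12 and MED13 are shown because they work in 1 module and stood on opposite sides of the P-body to cytoplasm ratio. POLR2B and POLR3F are shown as examples of members called enriched, and MED16 of those called depleted, in all 4 cell types.
POLR2B: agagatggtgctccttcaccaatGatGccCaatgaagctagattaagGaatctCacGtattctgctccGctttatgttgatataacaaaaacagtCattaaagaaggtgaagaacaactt
MED12: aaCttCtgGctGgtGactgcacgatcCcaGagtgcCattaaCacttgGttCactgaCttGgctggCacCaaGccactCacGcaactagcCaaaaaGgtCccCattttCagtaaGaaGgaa
MED13: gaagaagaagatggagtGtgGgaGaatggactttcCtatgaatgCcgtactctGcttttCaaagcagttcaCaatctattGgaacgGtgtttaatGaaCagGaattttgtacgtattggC
MED16: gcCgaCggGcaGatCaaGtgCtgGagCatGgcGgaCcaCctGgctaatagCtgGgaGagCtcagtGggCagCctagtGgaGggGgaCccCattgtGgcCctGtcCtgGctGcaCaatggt
POLR3F: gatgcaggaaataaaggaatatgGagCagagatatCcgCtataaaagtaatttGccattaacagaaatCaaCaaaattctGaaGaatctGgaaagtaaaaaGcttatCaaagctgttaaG
Of the 40 codons, 25 end in G or C in MED12 against 14 in MED13, 33 in MED16, 8 in POLR2B and 13 in POLR3F. The stretches not shown were less extreme. MED1 and MED7, also enriched in all 4 cell types, have 18 and 16 such codons, and POLR1A, also depleted in all 4, has 26. Over the whole coding sequence the share was 68.6% for POLR2A, 36.3% for POLR2B, 62.1% for MED12, 30.7% for MED13 and 89.5% for MED16. The genes lie at chr4:56977722-57031158 (POLR2B, plus strand), chrX:71118543-71144103 (MED12, plus strand), chr17:61942605-62065278 (MED13, minus strand), chr19:867630-893218 (MED16, minus strand) and chr20:18466878-18484648 (POLR3F, plus strand), all on hg38.

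Library totals ran from 6368953 to 17972284 reads, which puts the level of 3 reads at 0.167 to 0.471 CPM, and the members together took 0.434% to 0.596% of the reads of a library. The neuron P-body replicates stood farther apart (Spearman's rho across genes 0.919) than those of the other 7 groups (0.982 to 0.992), so neuron counts are also given without each of them. The 8 neuron markers summed to 9042 to 11790 CPM in the neuron libraries and to at most 199.4 CPM in the other human libraries. All 9 liver bud markers were detected in the liver bud libraries, with APOB at 107 to 310 CPM but AFP at only 5.45 to 8.16 CPM, and their summed level there (210.3 to 446.2 CPM) overlapped that in neuron P-bodies (265.2 and 271.1 CPM). In neuron P-bodies nearly all of the sum was PROX1 alone (256 and 263 CPM). The 5 pluripotency markers summed to 1018 to 1259 CPM in the liver bud libraries, against 14.29 to 34.76 CPM in the neuron and 2.344 to 4.773 CPM in the HEK293T libraries. Levels below are CPM after TMM normalization within the 4 libraries of a cell type, and a ratio is the edgeR log2 of P-body over cytoplasm with its standard error (SE, n = 2 libraries per fraction).

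Members lay on both sides of the ratio in every cell type. A member was called enriched in P-bodies or depleted from them where the adjusted p of edgeR's quasi-likelihood test passed 0.05, and these calls describe the ratio named in the choice of the group and are no test of it. In HEK293T cells 18 members were called enriched, where 19.3% of all genes were, and 26 depleted, where 22.8% were. In liver bud progenitors 21 were called enriched (all genes 21.4%) and 12 depleted (17.1%), and in neurons 10 enriched (14.6%) and 14 depleted (14.1%). In mouse ES cells 14 were called enriched (25.8%) and 10 depleted (20.6%). Leaving out either neuron P-body replicate gave 11 enriched and 18 depleted members in neurons. The background includes genes with few reads. With genes under 1 CPM left out it became 31.5% and 37.3% (HEK293T), 31.1% and 23.8% (liver bud), 19.7% and 20.1% (neurons) and 32.5% and 20.2% (mouse ES), so most of these counts stood near it.

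The median ratio of the 57 members was -0.19 in HEK293T cells, 0.15 in liver bud progenitors, -0.27 in the neurons and -0.06 in mouse ES cells, beside -0.01, -0.09, 0.19 and -0.11 over all genes. With genes under 1 CPM left out, the medians of all genes were -0.13, 0.04, -0.08 and 0.03. Scaling by library size alone gave member medians of -0.32, -0.04, -0.11 and -0.465 in the same order, and the mouse ES median was 0.04 without mouse ES P-body replicate 1. The median of all genes became -0.14 in HEK293T cells, -0.28 in liver bud progenitors, 0.35 in the neurons and -0.51 in mouse ES cells under that scaling. The share of enriched among all called genes was then 44.1% in place of 55.7% (liver bud), 62% in place of 50.8% (neurons) and 28.2% in place of 55.6% (mouse ES). In mouse ES cells the members then counted 8 enriched and 33 depleted, so directions there are relative to the TMM scale.

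**Figure D1:**
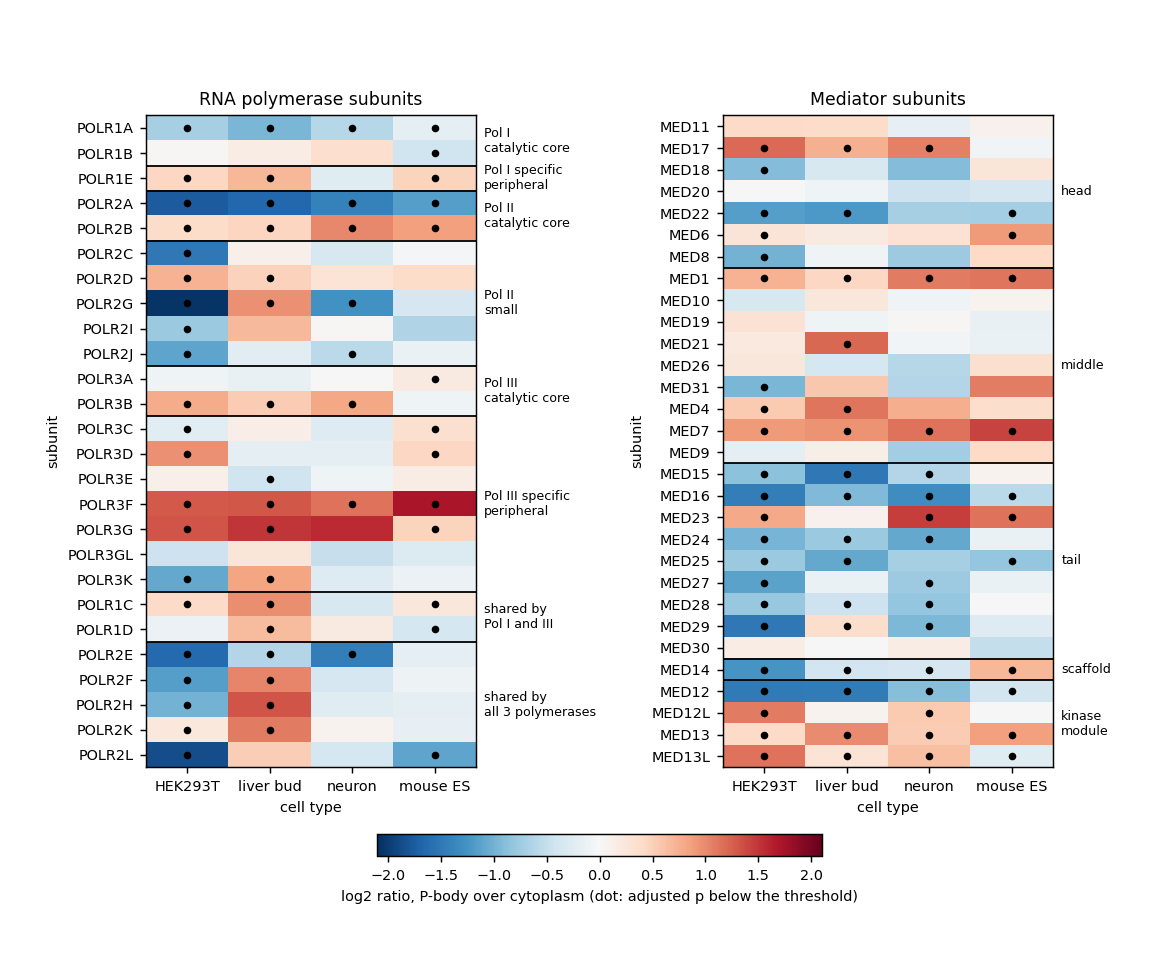
Log2 ratio of P-body over cytoplasm for 56 of the 57 subunits (rows, grouped by complex or module) in 4 cell types (columns), red above 0 and blue below, with a dot where the adjusted p of edgeR passed 0.05. POLR2A, MED12, MED16 and POLR1A are blue with a dot in all 4 columns, and POLR2B, MED13, MED1, MED7 and POLR3F red with a dot.

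The catalytic pair of polymerase II was split. POLR2A, the largest subunit, had 114.6 and 109.5 CPM in HEK293T P-bodies against 367 and 387.8 CPM in cytoplasm, 150.3 and 146.6 against 456.1 and 470.4 CPM in liver bud progenitors, 340.8 and 305.3 against 893.7 and 841.1 CPM in neurons, and 525.8 and 539.6 against 1204 and 1182 CPM in mouse ES cells. Every P-body library lay below both cytoplasm libraries of its cell type, and the ratio was -1.75 (SE 0.06), -1.64 (SE 0.06), -1.43 (SE 0.09) and -1.16 (SE 0.04) in the same order. POLR2B, its catalytic partner, had 468 and 500.8 CPM in HEK293T P-bodies against 377.7 and 362.7 CPM in cytoplasm, 161.2 and 157.9 against 118.3 and 113.8 CPM in liver bud progenitors, 301 and 358.9 against 151.6 and 174.6 CPM in neurons, and 314 and 331 against 177.5 and 178.3 CPM in mouse ES cells. Here every P-body library lay above both cytoplasm libraries, with ratios of 0.39 (SE 0.06), 0.46 (SE 0.07), 1.02 (SE 0.11) and 0.86 (SE 0.05).

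**Figure D2:**
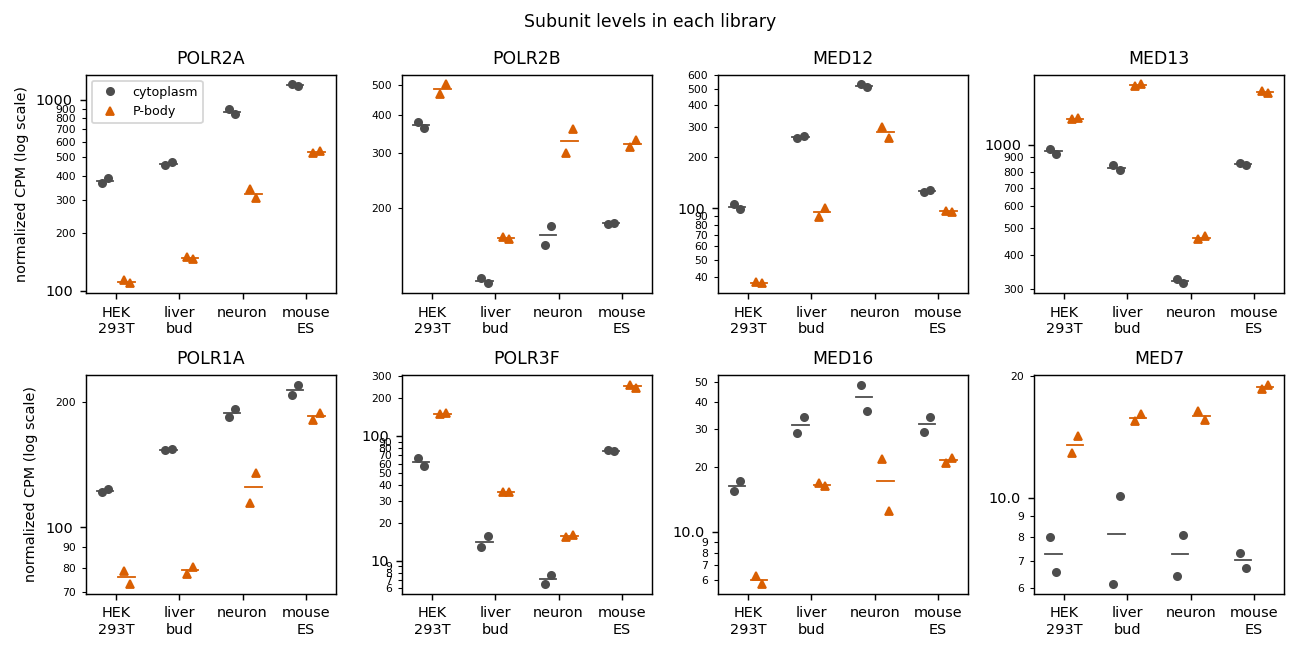
Normalized CPM (log scale) of 8 subunits in each library, cytoplasm as circles and P-bodies as triangles, with a bar at the mean of the 2 libraries. The upper row holds the partners POLR2A and POLR2B, MED12 and MED13, whose fractions separate in opposite directions, and the lower row POLR1A and MED16, lower in P-bodies, and POLR3F and MED7, higher in P-bodies.

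The same split can be read within a library, where no scaling factor enters. For each POLR2A read, HEK293T cytoplasm held 1.029 and 0.9353 POLR2B reads and HEK293T P-bodies 4.083 and 4.573. The liver bud cytoplasm held 0.2594 and 0.242 and the P-bodies 1.072 and 1.077. Neuron cytoplasm held 0.1696 and 0.2076 against 0.8831 and 1.176 in P-bodies, and mouse ES cytoplasm 0.1474 and 0.1509 against 0.5972 and 0.6134. The fractions did not overlap in any cell type, although the cytoplasmic proportion itself differed between cell types.

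The polymerase I pair moved apart less. POLR1A, the largest subunit, was called depleted in all 4 cell types, with ratios of -0.69 (SE 0.08), -0.96 (SE 0.08), -0.59 (SE 0.11) and -0.21 (SE 0.05) in HEK293T cells, liver bud progenitors, neurons and mouse ES cells. Its partner POLR1B was not called in the human cells (0.03, 0.15 and 0.35) and was depleted in mouse ES cells (-0.42, SE 0.12), a call lost under DESeq2 and without mouse ES P-body replicate 2. POLR1B reads per POLR1A read were higher in the P-bodies of the human cells, for example 1.089 and 1.096 against 0.6927 and 0.6313 in HEK293T cells, but in mouse ES cells they were 0.1308 and 0.1102 in P-bodies and 0.1439 and 0.1355 in cytoplasm. POLR1E, a peripheral polymerase I subunit, was enriched in HEK293T cells (0.43), liver bud progenitors (0.69) and mouse ES cells (0.47) and was at -0.26 in neurons. The liver bud call was lost under DESeq2 and without liver bud P-body replicate 1, and the mouse ES call under DESeq2, library size only, the filter on low counts and without either P-body replicate or cytoplasm replicate 2.

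In polymerase III the B subunit again carried the higher ratio in human cells. POLR3B was enriched in HEK293T cells (0.79, SE 0.06), liver bud progenitors (0.53, SE 0.11) and neurons (0.81, SE 0.18), while POLR3A, the largest subunit, stood at -0.08, -0.16 and 0.01 and was not called. In mouse ES cells the order turned, with Polr3a at 0.18 (SE 0.07, enriched) and Polr3b at -0.09 (SE 0.07, not called), and scaling by library size alone gave Polr3a -0.22. The Polr3a call was also lost under DESeq2, under the filter on low counts and without mouse ES P-body or cytoplasm replicate 2, and the neuron call of POLR3B without neuron cytoplasm replicate 2. POLR3B reads per POLR3A read were 1.104 and 1.154 in HEK293T P-bodies against 0.6128 and 0.6235 in cytoplasm, and 0.7792 and 0.7358 in mouse ES P-bodies against 0.8867 and 0.946 in cytoplasm.

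**Figure D3:**
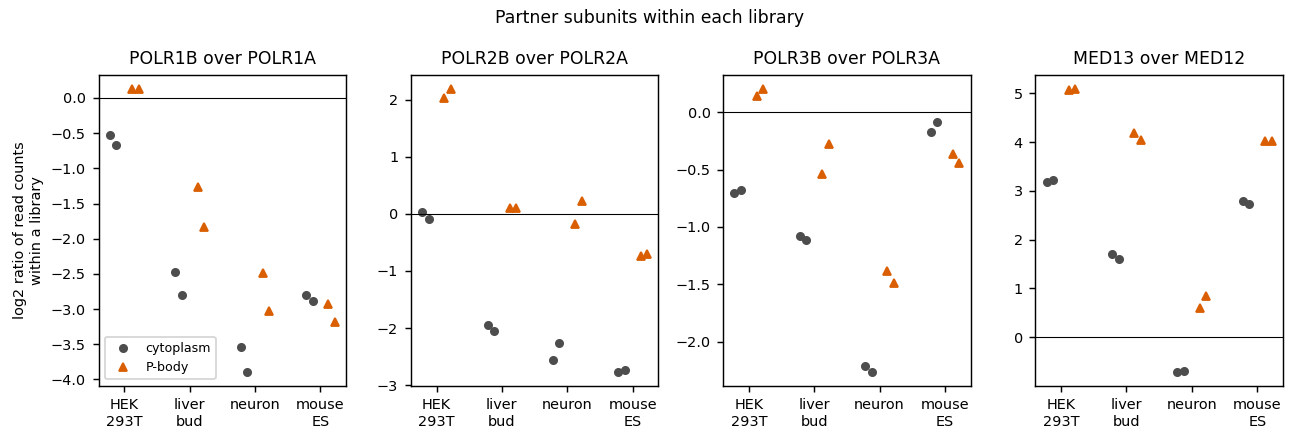
Log2 ratio of the read counts of partner subunits within each of the 16 libraries, cytoplasm as circles and P-bodies as triangles. POLR2B over POLR2A and MED13 over MED12 are higher in every P-body library than in the cytoplasm libraries of the same cell type, while POLR1B over POLR1A and POLR3B over POLR3A show this in the human cells and lower P-body values in mouse ES cells.

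Among the polymerase III subunits, POLR3F, part of the subcomplex that works in initiation, had the highest or the second highest ratio in each cell type. POLR3F had 150 and 151.6 CPM in HEK293T P-bodies against 66.93 and 56.94 CPM in cytoplasm, 35.44 and 35.31 against 12.74 and 15.68 CPM in liver bud progenitors, 15.33 and 15.92 against 6.515 and 7.699 CPM in neurons, and 257 and 242.1 against 77.05 and 75.53 CPM in mouse ES cells. No fractions overlapped, and the ratios were 1.28 (SE 0.08), 1.31 (SE 0.15), 1.14 (SE 0.30) and 1.71 (SE 0.06). The neuron call was lost without either cytoplasm replicate. POLR3F shares 404 exonic bases with DZANK1 on the other strand, and whether the counting used strand is not given in the sources used here.

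POLR3G and POLR3GL are alternative forms of 1 subunit, the former known from pluripotent and proliferating cells. POLR3G was enriched in HEK293T cells (1.32, SE 0.08), liver bud progenitors (1.49, SE 0.08) and mouse ES cells (0.46, SE 0.08), the last call being lost with library size only. In neurons it had only 24 and 43 reads in P-bodies and 15 and 9 in cytoplasm, with a ratio of 1.56 (SE 0.69) that was not called. POLR3GL stayed between 1.611 and 8.171 CPM in all 16 libraries, was called in no cell type, and had ratios of -0.44, 0.25, -0.49 and -0.28. POLR3G reads per POLR3GL read were 19.81 and 21.38 in HEK293T P-bodies against 6.637 and 5.542 in cytoplasm.

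The remaining polymerase III subunits had no common direction. POLR3D, which pairs with POLR3E, was enriched in HEK293T cells (0.97, SE 0.08) and mouse ES cells (0.44, SE 0.17), the latter call being lost under DESeq2, library size only, the filter on low counts and without any single library. POLR3K was depleted in HEK293T cells (-1.07, SE 0.10) and enriched in liver bud progenitors (0.82, SE 0.21). POLR3C had -0.21 in HEK293T cells (depleted) and 0.33 in mouse ES cells (enriched), and these calls were lost under several alternatives.

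Of the small polymerase II subunits and those shared by all 3 enzymes, most were depleted in HEK293T cells and several enriched in liver bud progenitors. The 7 subunits specific to polymerase II include the catalytic pair POLR2A and POLR2B. Of these 7, 2 were enriched and 5 depleted in HEK293T cells, and 3 and 1 in liver bud progenitors. In neurons 1 was enriched and 3 depleted, and in mouse ES cells 1 and 1. Their median ratios were -1.10, 0.46, -0.34 and -0.13 in the same order. The depleted subunit in liver bud progenitors was POLR2A and the enriched one in neurons POLR2B. Both mouse ES calls were those of this pair. Library size alone moved the last 3 medians to 0.27, -0.175 and -0.54, the liver bud median was 0.25 without liver bud P-body replicate 1, and the mouse ES median was -0.22 with the filter on low counts and -0.07 or -0.21 without cytoplasm replicate 1 or 2. Of the 5 subunits shared by all 3 enzymes, 1 was enriched and 4 depleted in HEK293T cells and 3 enriched and 1 depleted in liver bud progenitors, with medians of -1.15 and 1.02. The enriched call in HEK293T cells, POLR2K, was lost with library size only and without HEK293T P-body replicate 2. The median of the 5 in neurons was -0.35, and -0.61 or 0.03 without neuron P-body replicate 1 or 2. Over all genes with at least 1 CPM, 31.5%, 31.1%, 19.7% and 32.5% were called enriched in HEK293T cells, liver bud progenitors, neurons and mouse ES cells. The shares depleted were 37.3%, 23.8%, 20.1% and 20.2%.

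POLR2G, which with POLR2D forms the stalk of polymerase II, showed the widest span. It had 7.748 and 7.254 CPM in HEK293T P-bodies against 31.82 and 30.9 CPM in cytoplasm, but 13.68 and 12.84 against 7.467 and 6.198 CPM in liver bud progenitors, and 3.861 and 5.044 against 10.39 and 11.1 CPM in neurons. Its ratios were -2.06 (SE 0.15), 0.96 (SE 0.23) and -1.27 (SE 0.37), the fractions being apart in each, and the neuron call was lost under DESeq2 and without either cytoplasm replicate. Its stalk partner POLR2D had positive ratios throughout, from 0.28 in neurons to 0.73 in HEK293T cells, and was called in HEK293T cells and liver bud progenitors.

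POLR2H and POLR2F, present in all 3 enzymes, followed the same turn between HEK293T cells and liver bud progenitors. POLR2H had 18.86 and 16.37 CPM in HEK293T P-bodies against 32.7 and 36.94 CPM in cytoplasm (ratio -0.99, SE 0.13), and 22.77 and 28.37 against 9.663 and 10.88 CPM in liver bud progenitors (1.31, SE 0.18). POLR2F had ratios of -1.15 (SE 0.08) and 1.02 (SE 0.13). POLR2E, also shared by all 3, was depleted in HEK293T cells (-1.63), liver bud progenitors (-0.61) and neurons (-1.45) and was at -0.20 in mouse ES cells. POLR2L, another of them, was depleted in HEK293T cells (-1.86, SE 0.18) with 5.143 and 7.08 against 22.9 and 21.87 CPM. Kind of library and cell type cannot be told apart in the difference between HEK293T cells and liver bud progenitors.

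In the kinase module of Mediator, MED12 and MED13 stood on opposite sides in all 4 cell types. MED12 had 37.09 and 36.45 CPM in HEK293T P-bodies against 105.9 and 99.08 CPM in cytoplasm, 89.49 and 101.1 against 259.2 and 265.9 CPM in liver bud progenitors, 300.8 and 259.9 against 530.6 and 509.7 CPM in neurons, and 96.57 and 95.45 against 124.1 and 127.4 CPM in mouse ES cells. Its ratios were -1.48 (SE 0.09), -1.46 (SE 0.07), -0.89 (SE 0.09) and -0.39 (SE 0.06), with every P-body library below the cytoplasm libraries. MED13 had 1245 and 1246 CPM in HEK293T P-bodies against 967.2 and 928.3 CPM in cytoplasm, 1639 and 1654 against 845.8 and 807.8 CPM in liver bud progenitors, 456.2 and 467.1 against 325.6 and 314.9 CPM in neurons, and 1561 and 1547 against 857.5 and 847.8 CPM in mouse ES cells. Its ratios were 0.39 (SE 0.05), 0.99 (SE 0.05), 0.53 (SE 0.08) and 0.87 (SE 0.03), with no overlap of fractions.

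Within libraries there were 9.134 and 9.369 MED13 reads per MED12 read in HEK293T cytoplasm and 33.57 and 34.19 in P-bodies, and 3.264 and 3.039 against 18.31 and 16.37 in liver bud progenitors. Neurons had 0.6136 and 0.6177 in cytoplasm and 1.516 and 1.797 in P-bodies, and mouse ES cells 6.908 and 6.653 in cytoplasm and 16.16 and 16.21 in P-bodies. The paralogs did not repeat this split. MED12L was enriched in HEK293T cells (1.09, SE 0.08) and neurons (0.56, SE 0.17) and was at 0.07 and 0.00 in liver bud progenitors and mouse ES cells, and its neuron call was lost without either cytoplasm replicate. MED13L was enriched in HEK293T cells (1.15, SE 0.05), liver bud progenitors (0.29, SE 0.04) and neurons (0.63, SE 0.08) and depleted in mouse ES cells (-0.25, SE 0.04). With library size only its liver bud value was 0.105 and not called. MED12L reads per MED12 read were 2.723 and 2.747 in HEK293T P-bodies against 0.4431 and 0.4802 in cytoplasm.

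In the Mediator tail more members were called depleted than enriched in each cell type. Of its 9 subunits 7 were called depleted in HEK293T cells, 5 in liver bud progenitors, 6 in the neurons and 2 in mouse ES cells, and 1 was called enriched in each. Among all genes with at least 1 CPM, 37.3%, 23.8%, 20.1% and 20.2% were called depleted in the same order. The mouse ES count stood near that share. The median ratio of the tail was -0.86, -0.44, -0.77 and -0.15, the last being 0.10 or -0.40 without mouse ES P-body replicate 1 or 2 and -0.55 with library size only. The neuron median was -0.45 without neuron P-body replicate 2, and the liver bud median -0.695 with the filter on low counts. MED16, a tail subunit with the highest content of G and C among the human members, had 6.24 and 5.745 CPM in HEK293T P-bodies against 15.51 and 17.19 CPM in cytoplasm, 16.82 and 16.36 against 28.99 and 34.15 CPM in liver bud progenitors, 21.84 and 12.56 against 48.35 and 36.5 CPM in neurons, and 20.95 and 22.15 against 29.22 and 34.4 CPM in mouse ES cells. Its ratios were -1.45 (SE 0.18), -0.93 (SE 0.15), -1.31 (SE 0.26) and -0.56 (SE 0.12), every P-body library lying below the cytoplasm.

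MED15 and MED25, known as contacts of activators, were also low in P-bodies. MED15 reached -1.50 (SE 0.12) in liver bud progenitors, -0.86 in HEK293T cells and -0.62 in neurons, and was at 0.08 in mouse ES cells, and its neuron call was lost with library size only, with the filter on low counts and without neuron cytoplasm replicate 1. Med25 had the second lowest ratio among mouse members with at least 5 CPM (-0.81, SE 0.07). The tail subunit called enriched was MED23 in HEK293T cells (0.80, SE 0.06), neurons (1.44, SE 0.13) and mouse ES cells (1.15, SE 0.05). In liver bud progenitors MED23 was at 0.08 (SE 0.09, not called). The subunit called enriched there was MED29 (0.37, SE 0.12), a call lost under several alternatives. In neurons MED23 had 126.4 and 143 CPM in P-bodies against 45.23 and 53.79 CPM in cytoplasm.

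Of the 9 subunits of the Mediator middle, 3 were enriched and 1 depleted in HEK293T cells, and 4, 2 and 2 were enriched and 0 depleted in liver bud progenitors, neurons and mouse ES cells. Among all genes with at least 1 CPM, 31.5%, 31.1%, 19.7% and 32.5% were called enriched in the same order of cells. The enriched counts in HEK293T cells and neurons stood near these shares. MED1, which nuclear receptors contact, was enriched throughout, with 437.1 and 418.3 CPM in HEK293T P-bodies against 256.2 and 260.9 CPM in cytoplasm (0.73, SE 0.06), and ratios of 0.43, 1.08 and 1.13 in liver bud progenitors, neurons and mouse ES cells. MED7, which with MED21 forms a hinge of the middle, was enriched throughout at a lower level, for example with 18.49 and 18.98 CPM in mouse ES P-bodies against 7.333 and 6.734 CPM in cytoplasm (1.41, SE 0.17). Its other ratios were 0.89, 0.94 and 1.13 in HEK293T cells, liver bud progenitors and neurons, and the neuron call was lost without either cytoplasm replicate. MED21 was enriched in liver bud progenitors (1.20, SE 0.09) and was at 0.21, -0.05 and -0.15 in HEK293T cells, neurons and mouse ES cells.

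In the head, MED17, its organizing subunit, was enriched in HEK293T cells (1.20, SE 0.10), liver bud progenitors (0.74, SE 0.15) and neurons (1.06, SE 0.22), and was at -0.06 in mouse ES cells. MED22 was depleted in HEK293T cells (-1.16), liver bud progenitors (-1.20) and mouse ES cells (-0.72) and was at -0.69 in neurons. Its mouse ES call was lost under DESeq2 and without either P-body replicate or cytoplasm replicate 2. The backbone subunit MED14 changed side between the human and the mouse cells. It had 150.5 and 159.9 CPM in HEK293T P-bodies against 369.6 and 360.6 CPM in cytoplasm (-1.23, SE 0.06), but 156.3 and 162.7 CPM in mouse ES P-bodies against 104.6 and 91.89 CPM in cytoplasm (0.70, SE 0.06). Liver bud progenitors (-0.40, SE 0.05) and neurons (-0.36, SE 0.11) were on the side of HEK293T cells, and the neuron call was lost without P-body replicate 1, with library size only and with the filter on low counts. MED30 was near the level of detection, with at most 2.077 CPM, and was called nowhere.

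Content of G and C, which the choice of members did not use, varied with the ratio. Across the 57 members Spearman's rho between the ratio and the GC content of the transcript was -0.58 in HEK293T cells, -0.51 in liver bud progenitors, -0.69 in the neurons and -0.43 in mouse ES cells. The points are genes of the same libraries and not replicates, and the same measure over all genes with at least 1 CPM and a matched transcript was -0.56, -0.61, -0.52 and -0.58. The median GC content was 42.0% for enriched, 48.6% for uncalled and 54.7% for depleted members in HEK293T cells, 44.8%, 49.4% and 55.3% in liver bud progenitors, 42.0%, 49.3% and 55.1% in neurons, and 46.8%, 51.4% and 52.3% in mouse ES cells. Members departed from this order, as MED14 with 41.3% was depleted in the human cells and POLR2H and POLR2F were enriched in liver bud progenitors at 60.2% and 57.0%. The value of POLR2H rests on the rest of the transcript chosen. Its coding sequence had 47.1% and its 3' untranslated region 46.7%, against 56.7% and 56.2% in POLR2F. Transcript length had rho of 0.22, -0.38, 0.09 and 0.19 over the members, the negative value being that of liver bud progenitors.

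**Figure D4:**
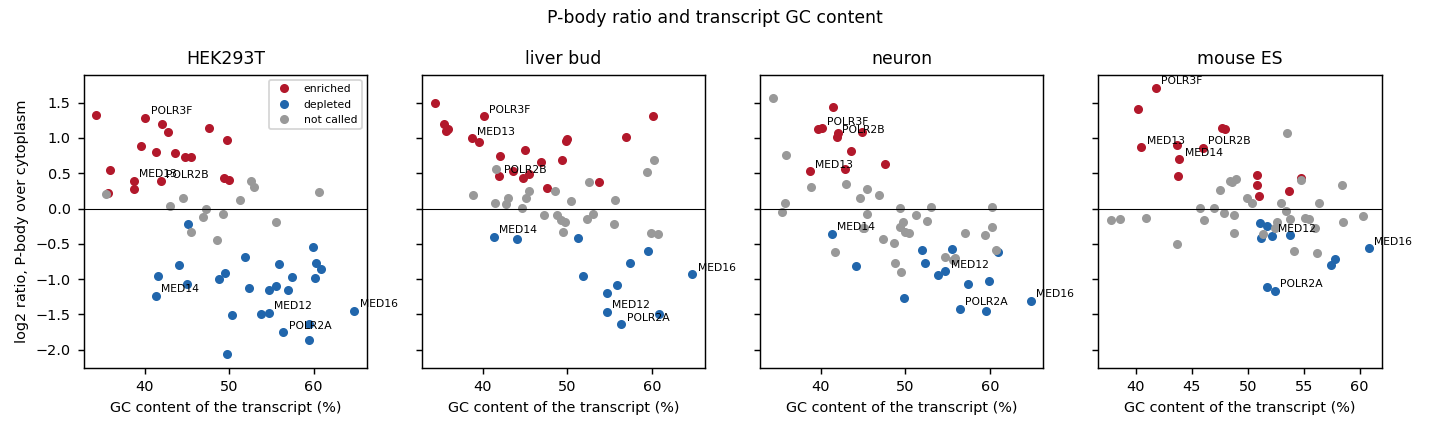
Log2 ratio of P-body over cytoplasm against the GC content of the transcript (percent) for the 57 members in each cell type, red where called enriched, blue where called depleted and grey otherwise. The points run from upper left to lower right, with POLR2A, MED12 and MED16 at the lower right and MED14 below most others of its GC content in the human cells.

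Across cell types 5 members were enriched in all 4 (MED1, MED13, MED7, POLR2B and POLR3F), beside 10.2% of the 12616 genes tested in all 4, and 4 were depleted in all 4 (MED12, MED16, POLR1A and POLR2A), beside 5.26%. Among 57 members both counts stood near these shares. A further 9 were called in opposite directions in different cell types (MED13L, MED14, MED29, POLR1D, POLR2F, POLR2G, POLR2H, POLR3C and POLR3K), and 8 were called in none (MED10, MED11, MED19, MED20, MED26, MED30, MED9 and POLR3GL). Among the 9, the calls of MED29 in liver bud progenitors, POLR1D in mouse ES cells and POLR3C in HEK293T cells were lost under several alternatives. The sign alone was positive in all 4 for 11 members and negative in all 4 for 12. For opposite calls, members called in none and signs, the share over all genes was not computed. Whether these counts are particular to the members is thus not known. The order of the 57 ratios was most alike between HEK293T cells and neurons (rho 0.82), the cells having no library in common and different library kits, and least alike between liver bud progenitors and mouse ES cells (0.29). Over all genes with at least 1 CPM these values were 0.69 and 0.47.

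The cytoplasm of neurons and liver bud progenitors, prepared from the same line with the same kit, was compared. The question was how the transcripts of the subunits differed between the cells in this fraction. With edgeR's quasi-likelihood test and Benjamini-Hochberg adjustment over 21900 genes, 24 members were higher in neurons, where 26% of all genes were, and 13 higher in liver bud progenitors, where 25.8% were. The median difference was 0.24 over the members and -0.16 over all genes. With genes under 1 CPM left out, the shares of all genes were 36.1% and 33.9%, beside 42.1% and 22.8% of the members. The median of all genes was then 0.06. With library size as the only scaling the median of all genes was -0.52, the share of calls higher in neurons went from 50.2% to 36.5%, and the members higher in neurons went from 24 to 12.

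POLR3G differed most. It had 1.529 and 0.9713 CPM in neuron cytoplasm (15 and 9 reads) and 61.81 and 58.54 CPM in liver bud cytoplasm, a log2 difference of -5.56 (SE 0.22, edgeR adjusted p 3.35e-35). Its alternative POLR3GL was higher in neurons, with 7.746 and 6.799 CPM against 1.501 and 2.365 CPM (1.89, SE 0.36, edgeR adjusted p 4.5e-06). Between these 2 cell types the pluripotency markers given above moved with POLR3G, and their part in this difference was not tested. In such bulk RNA fewer cells of a type and less RNA per cell cannot be told apart. In the other cytoplasm libraries POLR3G had 48.53 and 45.28 CPM (HEK293T) and 48.78 and 47.03 CPM (mouse ES), each normalized in its own cell type. The pluripotency markers, without normalization, summed to only 2.344 and 2.502 CPM in HEK293T cytoplasm, and to 1800 and 1759 CPM in mouse ES cytoplasm.

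The kinase module differed in opposite directions within itself. MED12 had 572.7 and 550.2 CPM in neurons and 241.5 and 248.6 CPM in liver bud progenitors (1.20, SE 0.08, edgeR adjusted p 7.82e-24). MED12L had 31.6 and 31.3 against 110.1 and 110.3 CPM (-1.81, SE 0.11, edgeR adjusted p 3.88e-24), MED13 351.4 and 339.8 against 788.2 and 755.4 CPM (-1.16, SE 0.07, edgeR adjusted p 6.04e-24), and MED13L 803.4 and 797.1 against 1366 and 1385 CPM (-0.78, SE 0.07, edgeR adjusted p 4.88e-17). Cytoplasmic MED12 was thus higher and the other 3 lower in neurons, with all libraries of one cell type apart from those of the other.

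The polymerase II subunits were mostly higher in neuron cytoplasm, 6 of 7 passing the test in that direction and 0 in the other. Of the 6, only POLR2A, POLR2B and POLR2J passed under DESeq2 and only POLR2A and POLR2B with library size only. POLR2A had 964.6 and 907.8 CPM in neurons and 425 and 439.8 CPM in liver bud progenitors (1.11, SE 0.07, edgeR adjusted p 2.07e-23), and POLR2B 163.6 and 188.4 against 110.2 and 106.4 CPM (0.70, SE 0.09, edgeR adjusted p 2.83e-10). MED24, a tail subunit, had 138.2 and 108.1 against 45.16 and 51.56 CPM (1.35, SE 0.11, edgeR adjusted p 2.86e-18). MED14 was lower in neurons (-0.83, SE 0.07, edgeR adjusted p 1.53e-16), and POLR3A was higher (0.74, SE 0.10, edgeR adjusted p 9.13e-10). POLR1A was higher (0.50, SE 0.09, edgeR adjusted p 4.13e-07) and POLR1B lower (-0.56, SE 0.18, edgeR adjusted p 0.00565), while POLR3B was lower (-0.40, SE 0.15, edgeR adjusted p 0.0201). Library size as the only scaling gave POLR1A 0.12 and no call, and the POLR1B and POLR3B calls were also lost under DESeq2. MED1 did not pass the test (-0.08, SE 0.08, edgeR adjusted p 0.427).

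**Figure D5:**
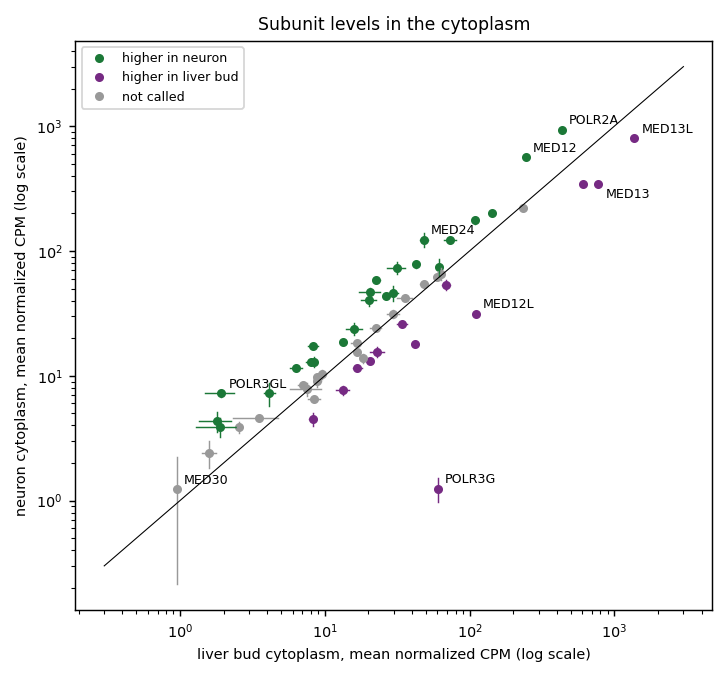
Mean normalized CPM of the 57 members in neuron cytoplasm (y axis) against liver bud cytoplasm (x axis), both on log scales, with bars from the lower to the higher of the 2 libraries and colour for the edgeR call. POLR3G lies far below the line of equal level at 1.25 CPM in neurons and 60.17 CPM in liver bud progenitors, and POLR2A and MED12 lie above it.

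The ratio of these cells can be set side by side, as they share line and kit but no library. In an interaction fit over their 8 libraries, 7 members had a higher ratio in neurons, where 9.21% of all genes did, and 9 a higher ratio in liver bud progenitors, where 8.5% did. With genes under 1 CPM left out, the shares of all genes were 12% in each direction, beside 12.3% and 15.8% of the members. Since the fit is built from the ratio by which the group was proposed, its values are a description. MED23 (1.44 in neurons and 0.08 in liver bud progenitors, difference 1.36, SE 0.16), MED1 (1.08 and 0.43) and MED12 (-0.89 and -1.46) had the smallest p among the former. MED21 (-0.05 and 1.20, difference -1.26, SE 0.21), MED29 (-0.94 and 0.37) and MED13 (0.53 and 0.99) had them among the latter. Of the 5 subunits shared by all 3 polymerases, 4 were called with a higher ratio in liver bud progenitors, among them POLR2H with a difference of -1.58 (SE 0.39) and POLR2F with -1.38 (SE 0.28). Of these 4, POLR2E and POLR2K lost the call with library size only, POLR2E also without liver bud P-body replicate 1 or either liver bud cytoplasm replicate, and POLR2H without liver bud P-body replicate 2 or cytoplasm replicate 1. MED12 lost it without liver bud P-body replicate 1 or neuron cytoplasm replicate 2, and MED13 with library size only. The count of 9 became 19 or 14 without neuron P-body replicate 1 or 2.

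Subunits outside the symbol rule give the rest of these complexes. In the kinase module, CCNC (cyclin C) was enriched in all 4 cell types, with ratios of 0.87, 1.52, 1.16 and 1.54 in HEK293T cells, liver bud progenitors, neurons and mouse ES cells. CDK19 was enriched in all 4 too (1.08, 0.89, 1.75 and 1.49), and its paralog CDK8 had -0.17, 0.26, 0.24 and 0.78, called in liver bud progenitors and mouse ES cells. In the cytoplasm of neurons CCNC was lower than in liver bud progenitors (-2.17, SE 0.16, edgeR adjusted p 2.72e-20). Polymerase I subunits now named POLR1F, POLR1G and POLR1H stand in the tables under older symbols. POLR1F, as TWISTNB, was enriched in all 4 (0.74, 1.38, 2.23 and 1.05). POLR1G, as CD3EAP, was enriched in HEK293T cells (0.90) and depleted in neurons (-0.98), and POLR1H, as ZNRD1, was depleted in HEK293T cells (-1.68).

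Lists of other transcription factors, chosen with earlier results known, were counted in the same way. Among all genes with at least 1 CPM, 31.5% were called enriched and 37.3% depleted in HEK293T cells, and 31.1% and 23.8% in liver bud progenitors. The shares were 19.7% and 20.1% in neurons and 32.5% and 20.2% in mouse ES cells. Several counts of these lists stood near such shares. Of 32 general factors of polymerase II (TBP, the factors bound to it, and TFIIA to TFIIH), 17 were called enriched and 7 depleted in HEK293T cells, 17 and 6 in liver bud progenitors, 8 and 2 in neurons and 17 and 2 in mouse ES cells, with medians of 0.27, 0.44, 0.36 and 0.42. Of 23 elongation factors 10 and 8, 8 and 9, and 9 and 6 were called in the human cells, and 9 and 3 of 19 measured in mouse ES cells, with medians of 0.22, -0.07, -0.24 and 0.08. ELL2 had the highest ratio of that list in each cell type, from 1.31 in liver bud progenitors to 2.66 in neurons. Of 14 Integrator subunits, 4 and 7, 7 and 5, 2 and 2, and 8 and 3 were called enriched and depleted in the same order, with medians of -0.28, 0.16, -0.04 and 0.23.

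For the 7 factors of polymerase I the counts enriched and depleted were 5 and 1, 4 and 2, 3 and 2, and 3 and 1, with medians of 0.56, 0.60, 0.06 and 0.03. For the 16 factors of polymerase III they were 4 and 8, 7 and 4, 2 and 3, and 6 and 1, with medians of -0.39, 0.13, -0.32 and 0.09. GTF3A, which recognizes the 5S gene, had the lowest ratio of that list in HEK293T cells (-1.51) and the highest in liver bud progenitors (1.71), the turn also seen in POLR2G, POLR2H and POLR2F.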

How the data were processed

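Gene expression was measured in 16 libraries of sorted P-bodies or cytoplasm. The deposited values are raw counts of reads for each gene symbol, in a human and a mouse table. Per the study's methods, reads were aligned to hg38 or mm10 with refGene annotation and genes under 10 reads in total were removed, and which of the stated quantifiers made which column is not given in the sources used here. Counts of POLR2J may be divided with its copies. The authors' tables of fold changes and p-values were not used.

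Members were found by symbol, and members and lists were chosen with earlier results of these data known. Groups came from the labels. Counts were fitted per cell type (4 libraries), for the cytoplasm of neurons and liver bud progenitors (4 libraries) and for the interaction (8 libraries) in edgeR 4.0.16 (R 4.3.3; quasi-likelihood test), TMM normalization and no covariate. Tests were two-sided, genes at 0 in every library were dropped, and p-values were adjusted by Benjamini-Hochberg over all genes, with calls at 0.05. The scripts were checked on simulated counts. GC content came from the best-ranked and then longest coding transcript in GENCODE (hg38 and mm10), and correlations across genes carry no p. Totals per library limit precision to counting error at best, because the reads carry no molecular identifiers.

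Members were named by role (the catalytic pairs, POLR3G, POLR3GL, MED1, MED14 and the kinase module), by the 3 highest and 3 lowest ratios per cell type among members with at least 5 CPM, by the 4 smallest p in each direction in cytoplasm and the 3 smallest in the interaction. Other members named were picked after their values were seen. A member and the sequence of another are not reported here. Alternatives were DESeq2 1.42.0, its size factors, library size only, a filter on low counts, a replicate block, removal of ribosomal RNA genes, 1 fit of all human libraries, and leaving out each library. Same-numbered libraries did not deviate together (correlations of -0.008 to 0.095).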

Additional observations from a re-analysis of the deposited data

Results flagged for a closer look

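The ratio of P-body over cytoplasm differed between neurons and liver bud progenitors, by the interaction term, for 9 of the named members, given as the log2 ratio in neurons minus that in liver bud progenitors. It was 1.36 for MED23, 0.65 for MED1, 0.56 for MED12, 0.55 for POLR2B, 0.48 for MED12L and 0.33 for MED13L. It was -1.32 for MED29, -1.26 for MED21 and -0.47 for MED13. MED12L lost the call without 7 and MED13L without 6 of the 8 libraries left out in turn, POLR2B without 3 (liver bud cytoplasm replicate 1, neuron P-body replicate 2 or neuron cytoplasm replicate 1) and MED12 without 2 (liver bud P-body replicate 1 or neuron cytoplasm replicate 2). MED12L also lost it under DESeq2, without ribosomal RNA genes and in 1 fit of all human libraries, and MED13 with library size only.

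In pairs of cell types other than that one, 9 members, with MED29 and MED13L again among them, were called in opposite directions with fractions that did not overlap, and these differences were not tested. The share of all genes called in this way was not computed. Between liver bud progenitors and HEK293T cells the log2 ratios differed by 3.02 for POLR2G, 2.30 for POLR2H, 2.17 for POLR2F, 1.89 for POLR3K and 1.87 for MED29. Between mouse ES and HEK293T cells they differed by 1.93 for MED14 and 0.55 for POLR3C, and MED13L was higher in HEK293T cells by 1.40. POLR1D was higher in liver bud progenitors than in mouse ES cells by 1.03. The call of POLR3C was lost under 6 alternatives in HEK293T cells and, in mouse ES cells, without P-body replicate 1 and with library size only, which turned its sign. MED29 lost its liver bud call under DESeq2, library size only, the filter on low counts, 1 fit of all human libraries and without liver bud P-body or cytoplasm replicate 1. POLR1D lost its mouse ES call under DESeq2 and without either P-body replicate or cytoplasm replicate 2, and its liver bud call without P-body replicate 1. Cell type and kind of library, and for mouse ES cells the species, cannot be told apart in these pairs of cells, except that HEK293T and mouse ES libraries were both of total RNA.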

How the results depend on the processing

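Counts of members called stayed within 1.5 times the value first given in 123 of the 138 alternative values. The exceptions by scaling or tool were mouse ES cells, where library size only gave 8 enriched and 33 depleted members and DESeq2 6 depleted, the cytoplasm of neurons, where DESeq2 gave 15 and library size only 12 members higher in neurons, and the interaction, where library size only gave 11 members with a higher ratio in neurons and 5 with a lower one. The share of interaction calls higher in neurons over all genes was 52%, 78.9% with library size only and 62.9% with the filter on low counts, and the median of all genes in the interaction went from 0.23 to 0.58 with library size only. Polr3a in mouse ES cells turned to -0.22 with library size only. Leaving out 1 library at a time gave 16 to 18 enriched and 24 to 26 depleted members in HEK293T cells, 18 to 21 and 11 to 13 in liver bud progenitors, 6 to 11 and 11 to 18 in neurons, 11 to 12 and 7 to 10 in mouse ES cells, 17 to 23 and 10 to 12 higher in neuron and liver bud cytoplasm, and 3 to 7 and 7 to 19 in the interaction. The lowest value in neurons came without neuron cytoplasm replicate 2 (6 enriched). In the interaction, 3 or 4 members were higher in neurons without liver bud P-body replicate 1, either liver bud cytoplasm replicate or either neuron cytoplasm replicate, and 19 or 14 were higher in liver bud progenitors without neuron P-body replicate 1 or 2. Where an arm was left with 1 library, it was assumed to vary like the other group.

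The replicate numbers did not pair the samples, and with the replicate block the interaction gave 8 members with a higher and 10 with a lower ratio in neurons, while neurons gave 10 enriched and 16 depleted members. POLR3B lost its cytoplasm call under it (edgeR adjusted p 0.0556). Of 301 alternative medians of complexes and modules, 285 kept their sign. The causes were not tested. Members under 5 CPM, MED30 above all, have too few reads for their ratios to be read.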
